A study of Homo sapiens with 6 samples.

Results

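Messenger RNAs of 38 nuclear genes for subunits of respiratory complexes II to V were followed on the polysomes of 3 established human breast cancer cell lines. The genes were chosen by symbol from the deposited table of 30726 genes, with no threshold on their values: 4 of complex II, 9 of complex III, 10 of complex IV and 15 of complex V. All 38 were found under their current symbols. Every line was wild type by label. SUM1315 is a triple negative line, SKBR3 a luminal HER2-positive line and T47D a luminal A line. Each line gave 1 library from cells in normoxia (21% oxygen) and 1 from cells in hypoxia (1% oxygen, 8 hours), so that 6 libraries were compared. All 6 lysates came from cells treated with cycloheximide, which holds ribosomes on mRNA, and RNA was taken from the polysome part of a sucrose gradient. The study asked how hypoxia affects which transcripts are translated. Each line had its own culture medium, so line and medium cannot be told apart.

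The respiratory chain of the inner mitochondrial membrane passes electrons from NADH and succinate to oxygen and uses the energy to pump protons, and ATP synthase lets the protons back to make ATP. Complex II is succinate dehydrogenase, complex III is ubiquinol-cytochrome c reductase, complex IV is cytochrome c oxidase, which reduces oxygen to water, and complex V is ATP synthase. Most subunits are nuclear-encoded, translated on cytosolic ribosomes and imported, while a few core subunits of complexes III, IV and V are made inside mitochondria from the mitochondrial genome. Cells short of oxygen are known to divert pyruvate from mitochondria through PDK1, a kinase that inhibits pyruvate dehydrogenase, and to exchange some complex IV subunits.

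Values are RPKM (read number divided by transcript length and library size), a unit read from the values, as the table names none. Pairs of values are given below as hypoxia, then normoxia. RPKM is a share of the library: in these bulk lysates, fewer mRNA copies per cell, fewer copies on polysomes and fewer cells expressing a gene cannot be told apart. By the steps between low values, 1 RPKM on 1 kb of transcript was worth between 21.7 and 33.4 reads or pairs, depending on the library, and a count of 3 was worth 0.0898 to 0.138 RPKM. The 3 lines carried the subtype markers listed for their labels. VIM and AXL were high in SUM1315 libraries, ERBB2 stood at 614.8 to 743.5 RPKM in SKBR3 libraries, and ESR1 and PGR were above 1 RPKM in T47D libraries only. Of 4 epithelial markers, EPCAM, KRT8 and KRT18 stood at 21.4 to 656 RPKM in SKBR3 and T47D, and at 0.150 to 0.736 in SUM1315. CDH1 stood at 10.8 and 6.12 RPKM in T47D, but at 0 and 0.0147 in SKBR3 and 0.0372 and 0.0227 in SUM1315. Of 6 leukocyte, endothelial and stromal markers, PTPRC, CD3E and PECAM1 stood at 0.0952 RPKM or less in every library. The other 3 were highest in SUM1315, with CD68 at 44.3 and 45.6 RPKM, COL1A1 at 119 and 91.7, and ACTA2 at 12.2 and 10.2. In SKBR3 and T47D, CD68 lay between 0.538 and 5.88 RPKM, COL1A1 between 0.525 and 2.34, and ACTA2 between 0.382 and 3.20. Their part in the differences between lines was not tested. Of the hypoxia-induced genes DDIT4, VEGFA, PDK1 and SLC2A1, all 4 rose, by 1.37 (PDK1) to 3.6 (DDIT4) on the log2 scale. CA9, also on this list, was too low to be tested. It stood at 0.0283 and 0 RPKM in SUM1315, 9.40 and 0.316 in SKBR3, and 0.946 and 0 in T47D.

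The c-ring genes of ATP synthase are shown first, because their coding sequences are much alike while the levels of ATP5MC1 and ATP5MC2 differed between lines. ATP5MC1 (GRCh38 chr17:48892765-48895871, plus strand), ATP5MC2 (chr12:53632726-53677408, minus strand) and ATP5MC3 (chr2:175176258-175184607, minus strand) are known to encode the same mature subunit c behind different import sequences. The last 228 bases of their coding sequences, stop codon included, are given from GENCODE release 29. Capitals mark the 53 positions at which the 3 are not all alike.
ATP5MC1: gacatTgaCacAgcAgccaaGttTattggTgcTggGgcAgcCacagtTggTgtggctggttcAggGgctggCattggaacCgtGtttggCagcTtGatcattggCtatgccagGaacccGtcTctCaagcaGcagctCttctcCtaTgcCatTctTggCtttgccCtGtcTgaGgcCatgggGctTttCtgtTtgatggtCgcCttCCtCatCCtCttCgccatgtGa
ATP5MC2: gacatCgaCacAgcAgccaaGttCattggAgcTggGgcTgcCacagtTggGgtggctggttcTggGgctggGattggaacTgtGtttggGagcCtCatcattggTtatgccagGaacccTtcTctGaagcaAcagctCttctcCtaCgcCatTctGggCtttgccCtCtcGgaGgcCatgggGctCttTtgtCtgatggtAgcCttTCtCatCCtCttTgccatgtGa
ATP5MC3: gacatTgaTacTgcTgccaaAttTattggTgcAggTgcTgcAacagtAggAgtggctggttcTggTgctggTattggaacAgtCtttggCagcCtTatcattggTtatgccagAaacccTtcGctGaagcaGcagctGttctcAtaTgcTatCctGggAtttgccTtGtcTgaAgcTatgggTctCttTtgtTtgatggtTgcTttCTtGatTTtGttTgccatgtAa
ATP5MC1 and ATP5MC2 were identical at 203 of these bases (89.0%), and ATP5MC3 was identical to each of them at 185 (81.1%). The longest unbroken identical stretch between any pair was 17 bases.

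Promoters were read for the 30 members with an entry in the RefSeq promoter table (GRCh38.p14, 250 bases before to 50 after the start). NRF1, a factor known to bind promoters of many respiratory genes, has the core GCATGCGC. On either strand this core was found in 8 of the 30 (26.7%), against 6.13% of the promoters of 7960 tested genes and 3.27% of all 27305 promoters. A 30-base window around 1 match is shown for each of the 8 genes, 5′ to 3′ on the gene's own strand, with the match in capitals. GCGCATGC is the same core read from the other strand, and the 2 forms overlap where the letters GCGCATGCGC occur.
SDHB (chr1:17054214-17054243, minus strand): aagccaaatggGCATGCGCcgctactgcgc
SDHD (chr11:112086754-112086783, plus strand): gctgtgtttgcGCATGCGCgacgggtgtgc
COX5B (chr2:97645915-97645944, plus strand): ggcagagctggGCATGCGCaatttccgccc
COX6A1 (chr12:120437884-120437913, plus strand): ggagggcacacGCATGCGCacgaaggaaac
ATP5F1C (chr10:7788146-7788175, plus strand): ggagcttcggcGCATGCGCgctgaggcctg
ATP5PF (chr21:25735156-25735185, minus strand): ccactcaaagaGCGCATGCgtacagagcaa
ATP5MC2 (chr12:53676105-53676134, minus strand): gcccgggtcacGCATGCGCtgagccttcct
ATP5ME (chr4:674336-674365, minus strand): cgccgctgacgGCGCATGCgtgcgcccagc
The letters CCGGAAG, the core bound by ETS factors such as GABP, were found in 13 of the 30 (43.3%), against 21.9% of tested genes' promoters and 10.7% of all. The hypoxia response element core ACGTG was found in 8 of the 30 (26.7%), against 28.2% and 21.6%. A match describes the letters and is not a bound site. Median fitted log2 changes under hypoxia were 0.03 with the ACGTG letters (n = 8) and 0.04 without (n = 22), -0.08 with the NRF1 core (n = 8) and 0.11 without (n = 22), and 0.05 with CCGGAAG (n = 13) and -0.04 without (n = 17). These splits were not tested.

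The 38 mRNAs were abundant on polysomes. In each library the median member lay at the 93.3th to 96.4th percentile of the 10253 genes tested. Summed over the 38, RPKM came to 3514 and 4032 in SUM1315, 6633 and 6261 in SKBR3, and 8829 and 7119 in T47D. Both SUM1315 sums lay below the other 4. As a share of all RPKM in a library these sums were 1.38% and 1.56%, 2.44% and 2.29%, and 2.97% and 2.49%. COX8A was the highest member in all 6 libraries. SDHA was the lowest in 5 of them, and UQCRB in the hypoxic SKBR3 library.

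**Figure D1:**
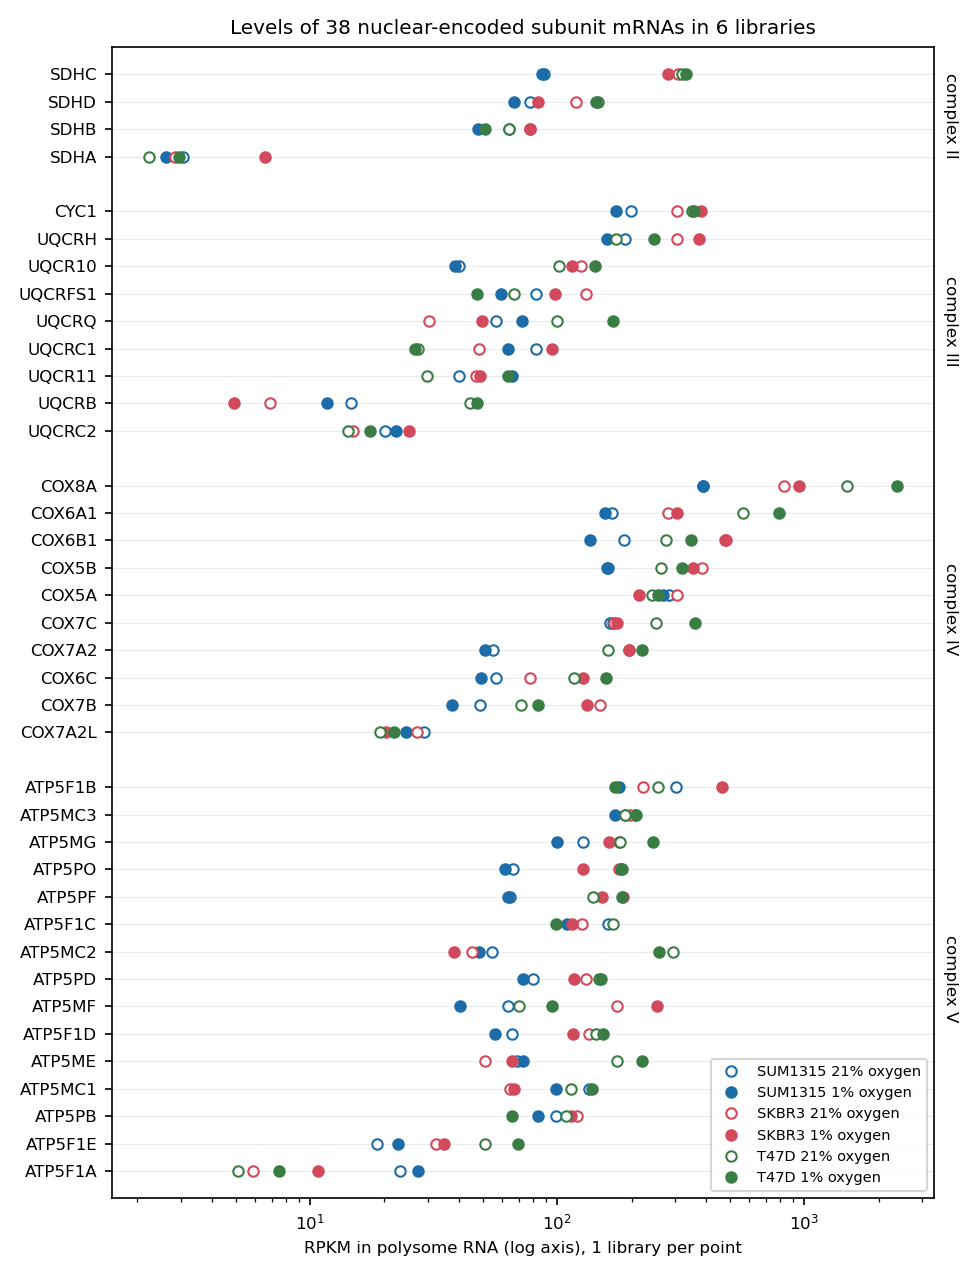
RPKM of the 38 subunit mRNAs (log axis) in 6 libraries, grouped by complex and ordered by mean level. Each point is 1 library, coloured by line and filled for hypoxia (1% oxygen) or open for normoxia (21% oxygen); COX8A stands highest and SDHA lowest by mean, and in 19 of 38 rows both SUM1315 points lie left of the other 4.

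Hypoxia was compared with normoxia over the 3 lines. None of the 38 subunit mRNAs passed the test in either direction, while 6.38% of the 10253 genes tested did (4.12% higher and 2.26% lower). The test was limma on log2(RPKM + 1) with the line as a block, two-sided, at a Benjamini-Hochberg adjusted p under 0.05 over all genes tested. At an unadjusted p under 0.05 there were 6 of 38 members, against 26.3% of all genes. These 6 were UQCRC2, UQCRFS1, UQCRQ and UQCR11 of complex III, and ATP5F1A and ATP5F1C of complex V. Fitted log2 fold changes ran from -0.49 (ATP5F1C) to 0.60 (UQCR11), with SE of 0.148 to 0.297. The 95% intervals of 37 members lay within a log2 change of 1 either way, and that of UQCR11 reached 1.04. The median over the 38 was 0.007, beside -0.007 over all genes. It had no stable sign: it was 0.17 without SUM1315, -0.02 without SKBR3 and -0.09 without T47D.

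Single settings changed that count. With the line SUM1315 left out, SDHA passed (limma adjusted p = 0.0263), and with SKBR3 left out UQCR11 passed (limma adjusted p = 0.0292). UQCRQ was closest to the threshold (limma adjusted p = 0.0501) and passed with a pseudocount of 0.1 (0.0490), without a mean-variance trend (0.0383), with robust shrinkage (0.0467), and when 1 RPKM was asked of all 6 libraries (0.0240). Under that last filter UQCR11 passed as well (0.0450). Over all alternatives the adjusted p reached at most 0.9999 for each of these 3 genes, without the line block. No member was called lower under any of the 14 alternatives.

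**Figure D2:**
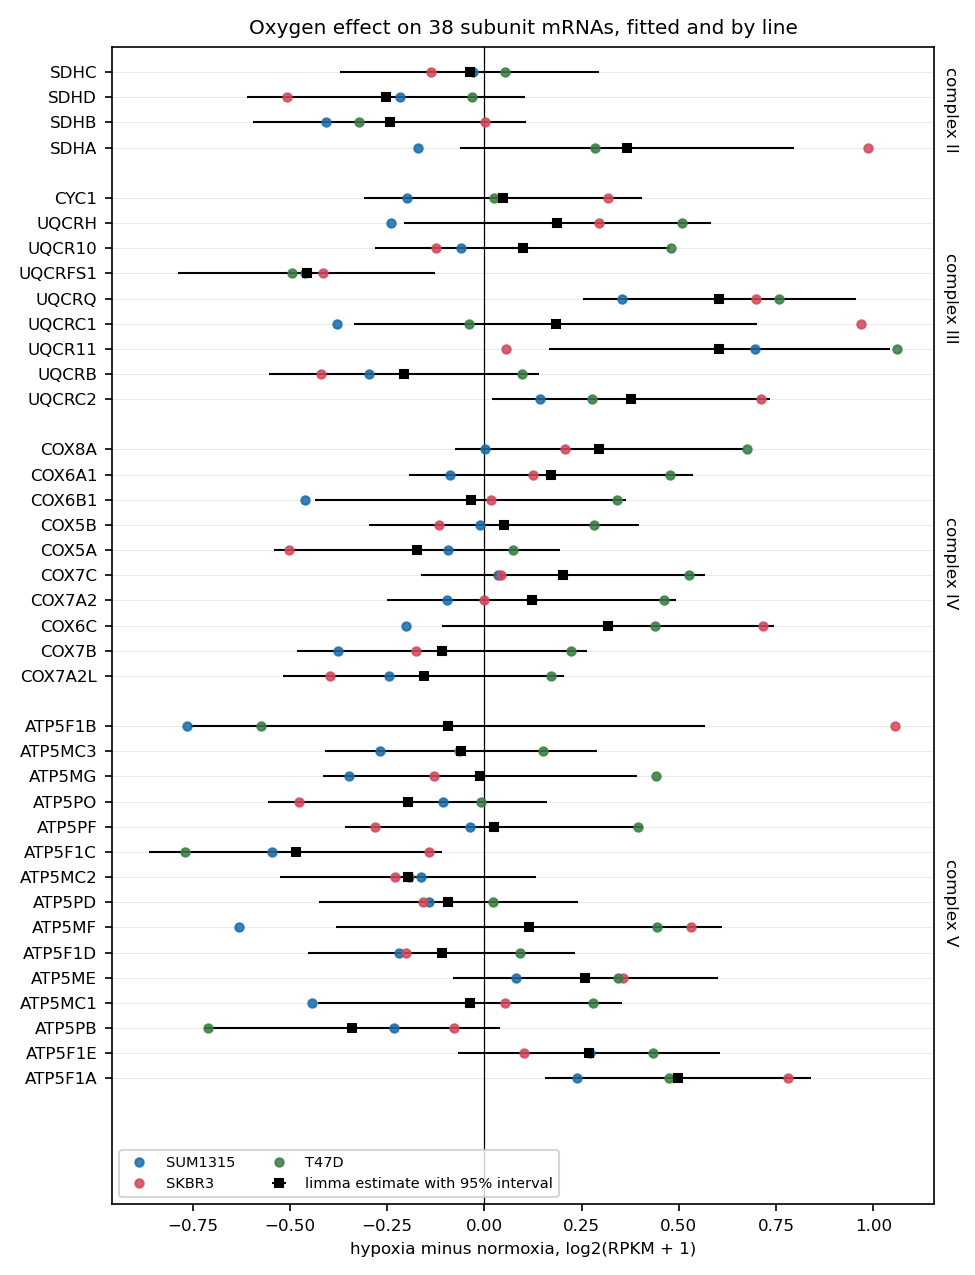
Log2 change from normoxia to hypoxia of log2(RPKM + 1) for the 38 subunit mRNAs. Black squares with bars are limma estimates with 95% intervals, and coloured points are the ratios within each line; the 3 lines often lie on different sides of 0, and the UQCRFS1 points lie together at -0.42 to -0.50.

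Complex II oxidises succinate to fumarate and feeds the electrons to ubiquinone. Its flavoprotein SDHA, which carries the FAD, stood at 2.61 and 3.06 RPKM in SUM1315, 6.58 and 2.83 in SKBR3, and 2.93 and 2.23 in T47D. The hypoxic SKBR3 library was the highest and the other 5 lay close together. The fitted log2 change was 0.37 ± 0.19 (limma SE, 3 pairs), with a limma adjusted p of 0.257. SDHA reads are uncertain: its pseudogenes SDHAP1, SDHAP2 and SDHAP3 held 36.7% to 77.2% of the RPKM of the 4 genes together. The membrane anchor SDHD stood at 66.6 and 77.7 RPKM in SUM1315, 83.4 and 119 in SKBR3, and 143 and 146 in T47D. Hypoxia was the lower value in all 3 lines, at -0.25 ± 0.16 on the log2 scale (limma adjusted p = 0.337). The other anchor, SDHC, was the most abundant subunit of the complex, at 86.5 and 88.4 RPKM in SUM1315, 279.7 and 307.5 in SKBR3, and 332.7 and 320.7 in T47D. Its log2 change of -0.04 ± 0.15 was small beside its spread between lines. The iron-sulphur subunit SDHB ranged from 47.8 to 77.6 RPKM. SDHC exceeded SDHA 28.9-fold to 144-fold in RPKM, a ratio per length that depends on the transcript models used by the authors, which no source used here names.

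Complex III passes electrons from ubiquinol to cytochrome c. UQCRFS1, the Rieske iron-sulphur protein that takes the first electron, stood at 59.2 and 81.9 RPKM in SUM1315, 98.3 and 131 in SKBR3, and 47.3 and 67.1 in T47D. Each line was lower under hypoxia by a similar step, with log2 ratios of -0.46, -0.42 and -0.50. The fitted change was -0.46 ± 0.15 (limma adjusted p = 0.0883). Its pseudogene UQCRFS1P1 held 10.5% to 16.0% of the RPKM of both. CYC1, cytochrome c1, which hands the electron to cytochrome c, was the most abundant member of the complex, at 173 and 199 RPKM in SUM1315, 382 and 306 in SKBR3, and 358 and 352 in T47D. Its fitted change was 0.05 ± 0.16, with a limma adjusted p of 0.869.

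The core proteins of complex III form its matrix arm. UQCRC2, the lowest member of the complex by mean, stood at 22.3 and 20.1 RPKM in SUM1315, 25.0 and 14.9 in SKBR3, and 17.5 and 14.3 in T47D. It was higher under hypoxia in each line, with a fitted change of 0.38 ± 0.16 (limma adjusted p = 0.172). UQCRC1 stood at 63.0 and 82.1 RPKM in SUM1315, 95.1 and 48.1 in SKBR3, and 26.5 and 27.3 in T47D. Only its SKBR3 pair was higher under hypoxia.

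Among the small subunits of complex III, 2 gave the highest fitted changes of the 38. UQCR11 stood at 65.8 and 40.2 RPKM in SUM1315, 48.6 and 46.7 in SKBR3, and 63.2 and 29.8 in T47D. Its hypoxic values all lay above its normoxic ones, although the SKBR3 pair was nearly level. The fitted change was 0.60 ± 0.20 (limma adjusted p = 0.0901). UQCRQ, described because it lay next to the threshold, stood at 72.4 and 56.4 RPKM in SUM1315, 49.6 and 30.2 in SKBR3, and 169 and 99.5 in T47D. It was higher under hypoxia in each line by 0.60 ± 0.16 on the log2 scale, while its oxygen groups overlapped because the lines differ more. The ubiquinone-binding subunit UQCRB stood at 11.8 and 14.7 RPKM in SUM1315, 4.91 and 6.90 in SKBR3, and 47.4 and 44.3 in T47D. UQCRH, the hinge protein, and UQCR10 had fitted changes of 0.19 and 0.10.

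Complex IV holds the site where oxygen is reduced, in subunits made inside mitochondria, and the nuclear members surround that core. COX8A, the ubiquitous isoform of the smallest subunit, stood at 390 and 390 RPKM in SUM1315, 956 and 827 in SKBR3, and 2376 and 1487 in T47D. The lines did not overlap, and the fitted oxygen change was 0.30 ± 0.17 (limma adjusted p = 0.288). COX6C, a transmembrane subunit, had the highest fitted change of the complex. It stood at 49.1 and 56.6 RPKM in SUM1315, 128 and 77.3 in SKBR3, and 158 and 117 in T47D. The SUM1315 pair went the other way from the SKBR3 and T47D pairs, and the fitted change was 0.32 ± 0.19 (limma adjusted p = 0.315). COX5A, a matrix-side subunit, had the lowest, at 267 and 285 RPKM in SUM1315, 215 and 305 in SKBR3, and 256 and 243 in T47D. All 6 values lay within a narrow band, with a fitted change of -0.17 ± 0.17 (limma adjusted p = 0.525). COX7A2L, which is related to COX7A and known as a supercomplex factor, was the lowest member listed with complex IV, at 24.4 and 29.03 RPKM in SUM1315, 20.3 and 27.04 in SKBR3, and 21.8 and 19.2 in T47D. Fitted changes of the other 6, COX5B, COX6A1, COX6B1, COX7A2, COX7B and COX7C, lay between -0.11 and 0.20.

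Complex V turns proton flow into ATP. Its catalytic head holds alternating alpha and beta subunits. The alpha subunit ATP5F1A stood at 27.5 and 23.1 RPKM in SUM1315, 10.8 and 5.87 in SKBR3, and 7.45 and 5.08 in T47D. Both SUM1315 values lay above the other 4, and hypoxia was the higher value in each line. The fitted change was 0.50 ± 0.15 (limma adjusted p = 0.0780). The catalytic beta subunit ATP5F1B stood at 177 and 302 RPKM in SUM1315, 466 and 223 in SKBR3, and 172 and 256 in T47D. Here the SKBR3 pair went up under hypoxia and the other pairs down, which gave a fitted change of -0.09 ± 0.30, the least precise of the 38. Although the head holds both proteins in equal number, ATP5F1B exceeded ATP5F1A 6.46-fold to 50.4-fold in RPKM. The annotation lists 20 transcripts for ATP5F1A and 11 for ATP5F1B, and no source used here says how reads were divided among them. The gamma subunit of the central stalk, ATP5F1C, was lower under hypoxia in each line, at 110 and 161 RPKM in SUM1315, 114 and 126 in SKBR3, and 98.8 and 169 in T47D. Its highest hypoxic value lay below its lowest normoxic one. The fitted change was -0.49 ± 0.17 (limma adjusted p = 0.108). ATP5F1D and ATP5F1E, the other subunits of the central stalk, changed by fitted values of -0.11 and 0.27.

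The peripheral stalk holds the head still against the rotor. Its 4 members, ATP5PB, ATP5PD, ATP5PF and ATP5PO, had a median fitted change of -0.14, and in SUM1315 and SKBR3 all 4 were lower under hypoxia. In T47D, ATP5PB went from 109 RPKM in normoxia to 65.9 in hypoxia, ATP5PF from 139 to 184, and the other 2 were nearly level. The membrane subunits e, f and g (ATP5ME, ATP5MF and ATP5MG) all had higher hypoxic values in T47D, by log2 ratios of 0.34 to 0.45. None of these 7 passed the test, with limma adjusted p of 0.234 (ATP5PB) or more.

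ATP5MC1 and ATP5MC2 of the c-ring differed between lines by more than their fitted oxygen changes. For ATP5MC3 both were small, with line differences of -0.03 to -0.07 (SE 0.19) and a fitted oxygen change of -0.06. ATP5MC1 stood at 98.7 and 134 RPKM in SUM1315, 66.7 and 64.2 in SKBR3, and 138 and 113 in T47D. ATP5MC2 stood at 48.4 and 54.3 RPKM in SUM1315, 38.3 and 45.1 in SKBR3, and 257 and 294 in T47D. ATP5MC3 stood at 172 and 207 RPKM in SUM1315, 188 and 197 in SKBR3, and 208 and 187 in T47D. ATP5MC2 was thus the gene with a separate T47D level, and ATP5MC3 was similar in all libraries. ATP5MC2 supplied 42.6% and 49.5% of the summed c-ring RPKM in T47D, against 15.2% and 13.7% in SUM1315 and 13.1% and 14.7% in SKBR3. ATP5MC3 supplied the most in SUM1315 (53.9% and 52.3%) and in SKBR3 (64.2% and 64.3%). The sum of the 3 was 319 and 396 RPKM in SUM1315, 293 and 306 in SKBR3, and 603 and 595 in T47D. Fitted oxygen changes were -0.04 (ATP5MC1), -0.20 (ATP5MC2) and -0.06 (ATP5MC3). Among the 38, 13 had rows for copies or readthrough transcripts in the table. Apart from SDHA and UQCRFS1, these held at most 2.32% of the RPKM of a gene and its copies (ATP5MF).

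Within lines, the members leaned in different directions. In SUM1315, 30 of 38 were lower under hypoxia, with a median log2 ratio of -0.18, while 49.1% of all genes were lower (median 0.005). In SKBR3, 19 of 38 were lower, with a median of 0.0005, against 56.1% of all genes (median -0.05). In T47D, 9 of 38 were lower, with a median of 0.28, against 46.8% of all genes (median 0.03). In complex IV, 8 of 10 members were lower in SUM1315, 5 of 10 in SKBR3 and 0 of 10 in T47D, with medians of -0.09, 0.008 and 0.39. The medians in SUM1315, SKBR3 and T47D were -0.19, -0.07 and 0.01 for complex II, -0.20, 0.30 and 0.28 for complex III, and -0.22, -0.08 and 0.15 for complex V. The sign was the same in all 3 lines for 8 members upward and 6 downward, of 38, where 23.5% and 25.2% of all genes were so. Each of these ratios compares 1 library with 1 library, so the difference between lines was not tested.

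Among the members, the T47D ratios moved with coding length. Below a coding length of 450 bases, a limit set after the values were seen, 21 of 22 members were higher under hypoxia in T47D, with a median log2 ratio of 0.44. Of the 16 longer members 8 were higher, with a median of 0.006. The same split held over all 730 short protein-coding genes tested, of which 597 were higher in T47D (median 0.34), while 8710 longer genes had a median of -0.007. Without the members and the cytosolic ribosomal proteins, 668 short genes had a T47D median of 0.36. In SUM1315 and SKBR3 the short genes had medians of -0.05 and -0.11. Across the 38 members, log2 ratio and log10 coding length correlated at r = -0.61 in T47D (rho = -0.71), -0.32 in SUM1315 (rho = -0.32) and 0.36 in SKBR3 (rho = 0.03). Over all 9440 protein-coding genes tested, r was -0.0155 in T47D (rho = 0.0352), 0.117 in SUM1315 (rho = 0.153) and 0.19 in SKBR3 (rho = 0.235). These describe genes within the same library pairs, and genes are not replicates. The part of length in the T47D ratios of the members was not tested.

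The longest members set SKBR3 apart. SDHA, ATP5F1A, ATP5F1B, UQCRC1 and UQCRC2, which have coding lengths of 1362 to 1995 bases, all had SKBR3 log2 ratios between 0.71 and 1.06. Of the 3684 tested genes of 1000 to 2000 coding bases, 4.51% reached 0.7 in SKBR3, and their median was -0.05. For the same 5 members the ratios ran from -0.76 to 0.24 in SUM1315 and from -0.57 to 0.47 in T47D. CYC1, the next longest member at 978 coding bases, had an SKBR3 log2 ratio of 0.32. This group was noticed in the data, with its length limits and the 0.7 cut set after the values were seen. As 1 pair of libraries it has no test.

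**Figure D3:**
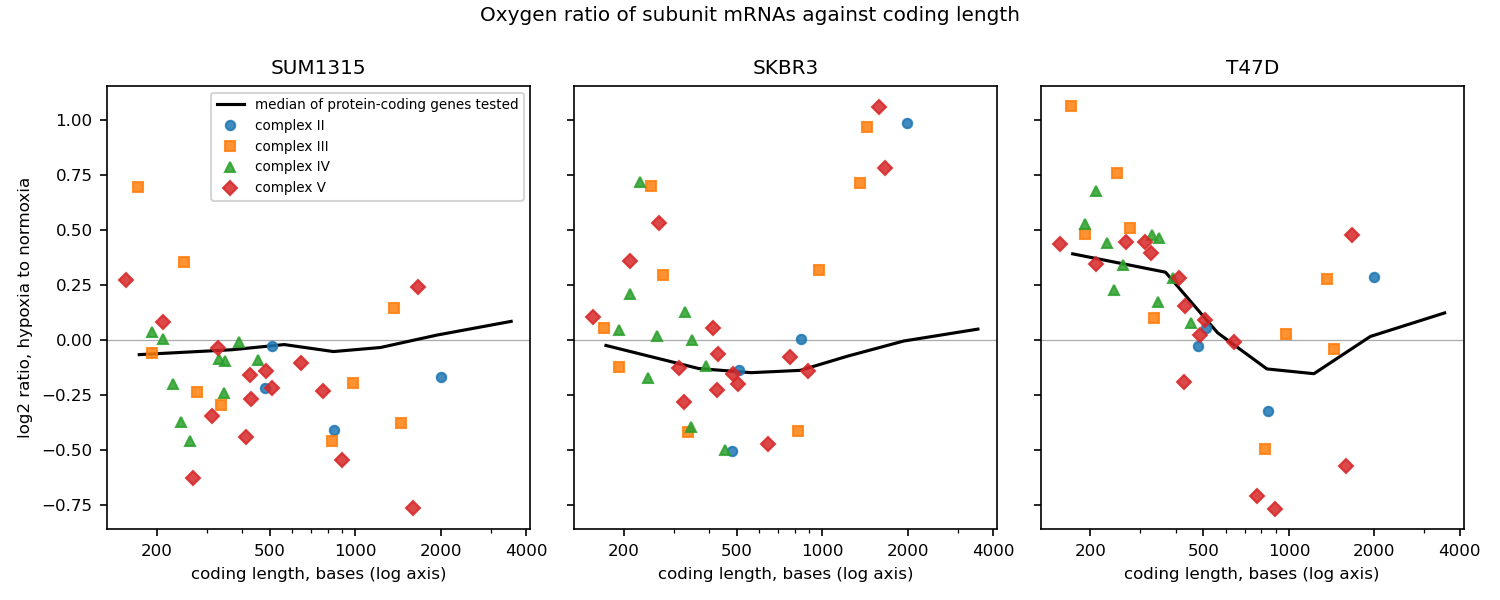
Log2 ratio of hypoxia to normoxia against coding length (log axis) for the 38 subunit mRNAs in each line. The black line joins the medians of protein-coding genes tested in bins of coding length. In T47D 21 of the 22 members under 450 bases lie above 0, as does the black line at those lengths. Its T47D median is -0.15 at 1000 to 1500 bases. In SKBR3 the 5 longest members lie at 0.71 to 1.06.

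Line contrasts came from the same limma fit, with 2 libraries a line at different oxygen levels and oxygen as a covariate. Their p-values take these 2 libraries as the replicates of a line and do not measure the spread between cultures of a line. In SUM1315, 20 of the 38 mRNAs were lower than in SKBR3 and 4 higher, while of all genes 28% were lower, 41.8% higher and 69.8% called either way. Against T47D, 23 were lower and 2 higher in SUM1315, beside 30.2% and 39% of all genes (69.2% either way). Between SKBR3 and T47D, 6 were higher in SKBR3 and 10 lower, beside 26.6% and 31.2% (57.9% either way). The median member difference was -0.54 for SUM1315 minus SKBR3 and -0.87 for SUM1315 minus T47D, where all genes had medians of 0.21 and 0.16. In 19 of 38 members both SUM1315 values lay below the other 4 (23.5% of all genes), and in 1, ATP5F1A, above them (32.9%). Of the 20 members lower than in SKBR3, 2 belonged to complex II, 4 to complex III, 7 to complex IV and 7 to complex V. Of the 23 lower than in T47D, the numbers were 2, 4, 8 and 9.

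These counts move with coding length and with single libraries. SUM1315 was lower than T47D in 54.7% of all short protein-coding genes and in 17 of the 22 short members. Among longer ones it was lower in 27.3% of genes and in 6 of the 16 members. SUM1315 was lower than SKBR3 in 41.6% of short genes and 13 of the 22 short members. For longer ones these were 26.8% of genes and 7 of the 16 members. Correcting the log2 values of each library for coding length, over 9440 genes, was an alternative chosen after the data were seen. With it, 15 members were lower and 9 higher in SUM1315 than in T47D. With each library scaled to the same sum, which let 13180 genes pass the filter, 22 were lower and 5 higher. Against SKBR3, 11 members were lower without the hypoxic SUM1315 library, and 2 were higher without the normoxic one. With no filter on low values, only 1 member was higher and 6 lower in SKBR3 than in T47D.

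ATP5F1A, the alpha subunit, had the largest positive difference in SUM1315, by 1.54 ± 0.19 on the log2 scale over SKBR3 (limma adjusted p = 4.4e-05) and by 1.87 ± 0.19 over T47D (limma adjusted p = 1.2e-05). UQCRC1, the complex III core protein, was higher than in T47D by 1.38 ± 0.28 in SUM1315 and by 1.30 ± 0.28 in SKBR3. UQCRB was higher in SUM1315 than in SKBR3 by 1.05 ± 0.19 and ATP5MC1 by 0.81 ± 0.22. The ATP5MC1 call was lost without the normoxic SUM1315 library (limma adjusted p = 0.200, with a range from 0.000369 over the alternatives). The UQCRC1 calls and the ATP5MC1 call were also lost with no filter on low values (limma adjusted p from 0.0795 to 0.121). Over the other alternatives every UQCRC1 call was kept, with adjusted p from 1e-05.

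Among the members lower in SUM1315 than in SKBR3, ATP5MF, subunit f, stood at 40.4 and 63.1 RPKM against 253 and 175, a difference of -2.04 ± 0.27 on the log2 scale. COX7A2, the ubiquitous isoform of a complex IV subunit, stood at 51.3 and 54.9 RPKM against 196 and 196, a difference of -1.86 ± 0.20. SDHC differed by -1.73 ± 0.18. In each of these 3 genes both SUM1315 values lay below both SKBR3 values. The largest negative differences from T47D were those of ATP5MC2 (-2.40 ± 0.18), COX8A (-2.27 ± 0.20) and COX6A1 (-2.04 ± 0.20). COX6A1, the ubiquitous isoform of its subunit, stood at 157 and 167 RPKM in SUM1315, 305 and 280 in SKBR3, and 788 and 566 in T47D.

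SKBR3 and T47D differed most in UQCRB (-2.78 ± 0.19, SKBR3 minus T47D), ATP5MC2 (-2.70 ± 0.18) and ATP5ME (-1.74 ± 0.19). ATP5ME, subunit e at the base of the ATP synthase, stood at 72.5 and 68.5 RPKM in SUM1315, 65.8 and 51.2 in SKBR3, and 221 and 174 in T47D. Its T47D values lay apart from the other 4. In the other direction ATP5MF differed by 1.35 ± 0.27, UQCRC1 by 1.30 ± 0.28 and UQCRFS1 by 1.00 ± 0.18. The ATP5MF call was lost with no filter on low values (limma adjusted p = 0.0989) and kept under the other alternatives, from 6.28e-06. UQCRFS1 stood at 98.3 and 131 RPKM in SKBR3 against 47.3 and 67.1 in T47D, with no overlap.

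**Figure D4:**
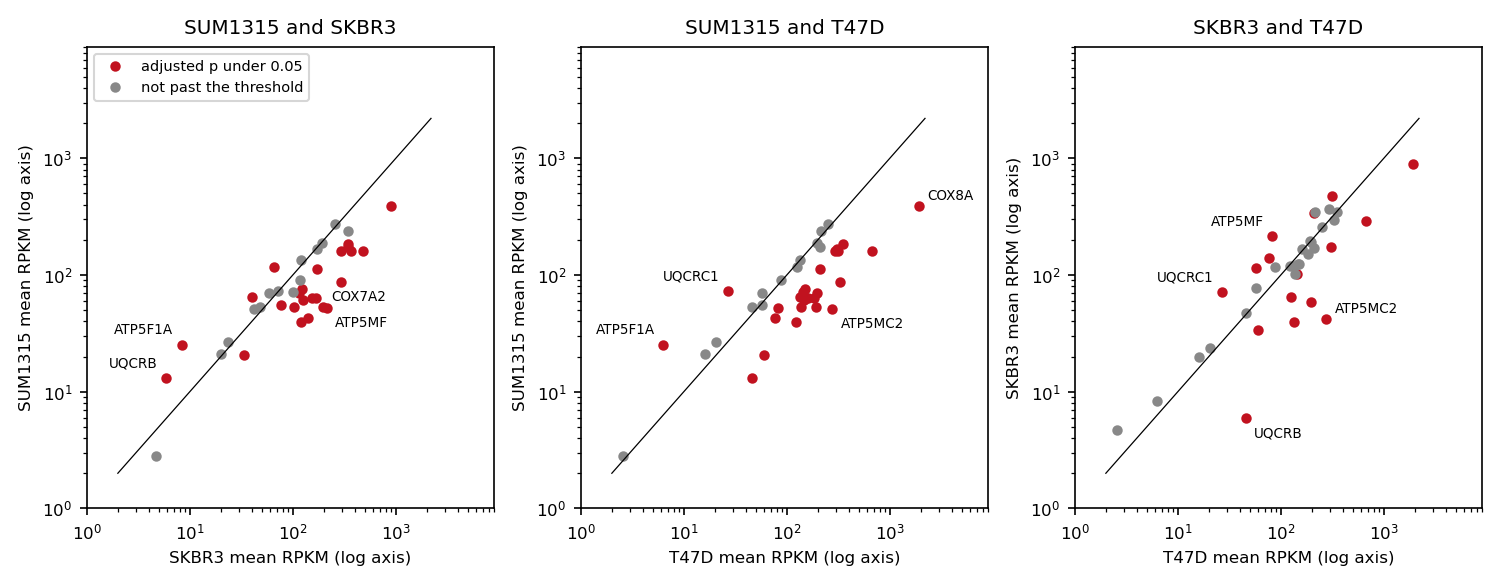
Mean RPKM of the 38 subunit mRNAs (2 libraries a line, log axes) for each pair of lines, with the line of equal values in black. Red points passed a limma adjusted p of 0.05; most red points lie below the line in the SUM1315 panels, with 20 of 38 lower than in SKBR3 and 23 of 38 lower than in T47D.

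Of the 6 mitochondrially encoded partners, 0 passed the oxygen test by limma, beside 6.38% of all genes. At an unadjusted p under 0.05 there was 1, beside 26.3% of all genes. The 6 are MT-CYB of complex III, MT-CO1, MT-CO2 and MT-CO3 of complex IV, and MT-ATP6 and MT-ATP8 of complex V. MT-ATP8 had the highest fitted change, 0.65 ± 0.23 (limma adjusted p = 0.110), at 322 and 313 RPKM in SUM1315, 237 and 90.2 in SKBR3, and 325 and 225 in T47D. MT-CO3 had the lowest, -0.14 ± 0.16. Their mRNAs are translated inside mitochondria, so their presence here is that of RNA in the polysome fractions. Of 37 nuclear complex I subunits, 0 passed the limma test (1 at an unadjusted p under 0.05), beside the same shares of all genes. Median ratios of the 37 were 0.26 in T47D, 0.07 in SKBR3 and -0.14 in SUM1315.

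Assembly factors insert cofactors and chaperone subunits. Of 27 complex IV factors 1 rose and 4 fell under hypoxia, where 4.12% of all genes tested rose and 2.26% fell. LRPPRC, which stabilises mitochondrial mRNAs, rose by 1.05 ± 0.16 on the log2 scale, at 8.18 and 4.49 RPKM in SUM1315, 10.2 and 3.02 in SKBR3, and 3.83 and 1.51 in T47D (limma adjusted p = 0.00807). COA7 changed by -0.91 ± 0.15, at 25.8 and 45.0 RPKM in SUM1315, 13.4 and 28.8 in SKBR3, and 12.03 and 23.4 in T47D (limma adjusted p = 0.00965). TACO1, a translational activator of MT-CO1, changed by -0.76, and the copper chaperones SCO1 and SCO2 by -0.68 and -0.62, with limma adjusted p of 0.0252, 0.0245 and 0.0469. Of 5 complex V factors TMEM70 fell, by -0.72 ± 0.15 (limma adjusted p = 0.0245). Of 4 complex II factors SDHAF4 rose, by 0.64 ± 0.13 (limma adjusted p = 0.0220). None of 8 complex III factors passed (1 at an unadjusted p under 0.05), beside 6.38% and 26.3% of all genes. Whether factors and subunits differ in their response was not tested.

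Electron carriers, regulators and genes that link HIF to respiration were the other lists examined. CYCS, cytochrome c, stood at 85.5 and 128 RPKM in SUM1315, 202 and 254 in SKBR3, and 155 and 163 in T47D, with a fitted change of -0.33 ± 0.16 (limma adjusted p = 0.225). COX4I1, the common isoform of subunit IV, stood at 92.1 and 89.0 RPKM in SUM1315, 143 and 147 in SKBR3, and 300 and 281 in T47D, a change of 0.03 ± 0.15. COX4I2, its hypoxia-linked isoform, was not analysed here. ATP5IF1, the inhibitor of ATP synthase, had a change of 0.17 ± 0.17 (limma adjusted p = 0.546). Among 8 regulators of respiratory genes tested 0 passed by limma (3 at an unadjusted p under 0.05), beside 6.38% and 26.3% of all genes. TFAM, which packages and transcribes mitochondrial DNA, had the lowest change among these regulators, -0.54 ± 0.15 (limma adjusted p = 0.0566). Of 5 genes tested that link HIF to respiration 3 rose, beside 4.12% of all genes: PDK1 by 1.37, MXI1 by 1.78 and the protease gene LONP1 by 0.64 ± 0.16 (limma adjusted p = 0.0401). NDUFA4L2, a hypoxia-linked relative of the complex IV subunit NDUFA4, went from 0.234 to 7.42 RPKM in SKBR3. It stayed under 1 RPKM in the other lines and was below the level needed for the test.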

How the data were processed

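Polysome RNA-seq values of 6 libraries were used, 1 per cell line and oxygen level. The deposited table holds RPKM made by the authors. This unit was inferred from the values multiplied by transcript length. For 48.6% to 50.7% of 3166 to 3564 single-transcript genes these were whole multiples of a step (tolerance 0.02 of it). A step fixed beforehand would give 4% by chance. The step of each library was instead the one with the largest share among its low values. Per the submitters' processing notes, GRCh38 (hg38) was used with Trimmomatic, HISAT2, SAMtools and Partek. No source used here gives the annotation, the strand setting or the handling of multiply mapped reads.

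Values were used as deposited. A gene was tested if at least 3 libraries had 1 RPKM or more (10253 genes, among them all 38 members). limma 3.58.1 in R 4.3.3 was fitted to log2(RPKM + 1) with a mean-variance trend, oxygen and cell line as terms, two-sided, with Benjamini-Hochberg adjustment over all genes and a threshold of 0.05. A fold change on this scale understates that of low genes. Line contrasts came from the same fit. With 2 residual and 8.02 prior degrees of freedom, SE lean on other genes. Nothing says that a line was cultured more than once at an oxygen level, so the lines are the only replication, and p-values measure the spread between these 3 pairs. Line and oxygen together could not be tested. The pairing is that of the cell lines named in the labels: the 2 libraries of a line deviated together from the oxygen means, with correlations of 0.969 (SUM1315), 0.936 (SKBR3) and 0.941 (T47D). The fit was tested on simulated data.

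Members and gene lists were chosen with earlier results of these data known. Full values are given for the largest fitted rise and fall and the highest and lowest mean of each complex, for the c-ring genes and for the 3 largest called differences each way per line contrast. Genes of other lists are named where they passed or were their list's extreme, with CYCS, COX4I1, ATP5IF1 and PDK1. Other members are named as examples after their values were seen. Gene positions and coding lengths came from GENCODE release 29 (GRCh38), promoters from RefSeq (GRCh38.p14). Alternatives changed the pseudocount, scaling, filter, variance model, block, oxygen term, libraries and coding-length correction.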

Additional observations from a re-analysis of the deposited data

Results flagged for a closer look

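In a pair of members the lines went opposite ways between normoxia and hypoxia, by a log2 ratio of 0.5 or more each way, a limit set after the values were seen. ATP5F1B, the catalytic beta subunit of ATP synthase, had a log2 ratio of 1.06 in SKBR3, whereas SUM1315 gave -0.76 and T47D gave -0.57. ATP5MF, subunit f of its membrane part, had log2 ratios of 0.53 in SKBR3, 0.44 in T47D and -0.63 in SUM1315. Over all genes tested 63 of 10253 (0.614%) met the same limit. Each ratio rests on 1 pair of libraries, and the difference between lines was not tested.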

How the results depend on the processing

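No member was called lower under hypoxia with any of the 14 alternatives. The count called higher, 0 as reported, was 1 with a pseudocount of 0.1, 1 with no mean-variance trend, 1 with robust shrinkage, 2 with 1 RPKM asked of all 6 libraries, and 0 to 1 when a line was left out. Without the replicate block (cell line) 0 members were called either way. When a line was left out, the median fitted change ran from -0.087 to 0.17 over all members, from -0.14 to -0.06 in complex II, from 0.06 to 0.40 in complex III, from -0.06 to 0.20 in complex IV and from -0.16 to 0.06 in complex V. The last 2 and that over all members turned sign. The other alternatives gave complex medians of the same sign as reported. The median over all members also turned sign with median centring (-0.01) and after coding-length correction (-0.07).

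For SUM1315 minus SKBR3, 10 members were higher after coding-length correction, and leaving out single libraries gave 2 to 5 higher and 11 to 21 lower. For SUM1315 minus T47D, 9 were higher and 15 lower after coding-length correction, 5 were higher with each library scaled to the same sum, and 1 with no filter on low values. That scaling moved the median of all genes by 0.15 (SUM1315 minus SKBR3) and 0.18 (SUM1315 minus T47D), and median centring by -0.20 in both. The scaling came before the pseudocount and the filter, so 13180 genes were tested instead of 10253. Its shifts and counts thus mix scaling with a wider filter. For SKBR3 minus T47D, 10 were higher after coding-length correction, and 1 was higher and 6 lower with no filter. ATP5MF and COX7C, lower in SUM1315 than in T47D as reported, stood at 0.12 and 0.051 after coding-length correction. The cause was not tested in these cases. A count of 3, at most 0.138 RPKM on 1 kb, lay below every member's lowest value (2.23 RPKM, SDHA in T47D normoxia).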
